A study of Mus musculus with 75 samples.

Results

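Kmt2c knockout haematopoietic progenitor cells (HPC) from mice given interleukin-1 (IL-1) were compared with the same cells from mice given vehicle. The comparison covers 6 of the 75 libraries of the series, 3 from IL-1-treated and 3 from vehicle-treated mice, and every gene in the read count table was considered. Members were chosen by sample label alone, and no measured value entered the choice. The knockout (ko) genotype is Kmt2c f/f; Vav-Cre, in which floxed Kmt2c alleles are recombined by a Cre whose Vav promoter is active across blood cells. Mice were 8 weeks old and received IL-1 at 0.5 ug per mouse for 3 days, or phosphate-buffered saline (PBS) for 3 days. The form of IL-1 is not named. Wild-type (wt) HPC under the same treatments, 3 libraries per arm, served for comparison and carry no Vav-Cre in their labels, so the loss of Kmt2c and the presence of Cre cannot be told apart between genotypes. Haematopoietic stem cells (HSC) of the ko genotype, 4 libraries per arm, were given the same treatments.

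IL-1 is an inflammatory cytokine that signals through the receptor chains Il1r1 and Il1rap, the adaptor MyD88 and NF-kB. In bone marrow it is known for pushing stem and progenitor cells towards granulocyte and monocyte output through factors such as PU.1. Kmt2c (also called MLL3) is a histone methyltransferase that marks enhancers at lysine 4 of histone H3. HPC stand between the multipotent stem cell and its committed progeny, and their gate is not described in the labels.

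The ko HPC libraries held 33.5e6 to 41e6 counted reads after IL-1 and 33.6e6 to 42.8e6 after PBS, with 0.478 to 0.703% and 0.532 to 0.813% mitochondrial reads. Their 6 HPC markers (Cd48, Flt3, Kit, Ly6a, Cd34 and Cd27) were each above 1 CPM (library-size-scaled read counts) in each group and summed to 2858 to 3698 CPM after IL-1 and 3377 to 4206 CPM after PBS. Of 10 mature neutrophil markers, 8 stayed under 1 CPM in all IL-1 libraries and 8 in all PBS libraries, the others being Cxcr2 in both arms, Mmp8 after IL-1 and Ngp after PBS. Y-linked genes were read at 122.6 and 151.6 CPM in 1 library of each arm, IL-1 replicate 1 and PBS replicate 2. They were at no more than 0.163 CPM in the other 4, so sex was balanced between the ko arms. In wt HPC such reads were present in IL-1 replicates 2 and 3 (209 and 183 CPM). Of the wt PBS libraries only replicate 3 held them (220 CPM), so sex was not balanced between the wt arms. The labels do not say which libraries come from separate animals. Y-linked reads differ within each arm, so each arm holds RNA of more than 1 animal, but libraries of 1 sex within an arm may share one, and every p rests on how far these libraries vary.

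Kmt2c (ENSMUSG00000038056) was measured first as a check of the labels. Its level was 13.8, 13.8 and 12.4 CPM in ko HPC after IL-1 and 12.9, 19.9 and 21.8 CPM after PBS, against 38, 43.9 and 46 CPM and 29.5, 60.4 and 66.4 CPM in the wt libraries. Each ko library lay below each wt library. Between the ko arms the log2 change was -0.45 ± 0.28 (SE, edgeR quasi-likelihood test, adjusted p = 0.921). The floxed exons are not named in the sources used here, the count runs over the whole gene, and the antisense gene Gm42585 overlaps it.

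Few genes were called between IL-1 and PBS in ko HPC. Of 15951 genes tested, 69 (0.433%) passed a Benjamini-Hochberg adjusted p of 0.05. These were 47 higher genes (0.295%) and 22 lower genes (0.138%). In each of the 69 the 3 IL-1 libraries lay entirely on one side of the 3 PBS libraries. Such separation nearly follows from passing a test on the same values. Of all 15951 genes tested, 1007 lay entirely higher after IL-1 and 1133 entirely lower. An unadjusted p under 0.05 was reached by 1095 genes, the 69 among them. With the replicate number as a block the count was 132 (0.828%, with 0.476% higher and 0.351% lower), and with genotype and number together as a block it was 116 (0.727%). DESeq2 called 233 genes and limma voom 187. With 3 libraries per arm, a gene without a call may still have changed.

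**Figure D1:**
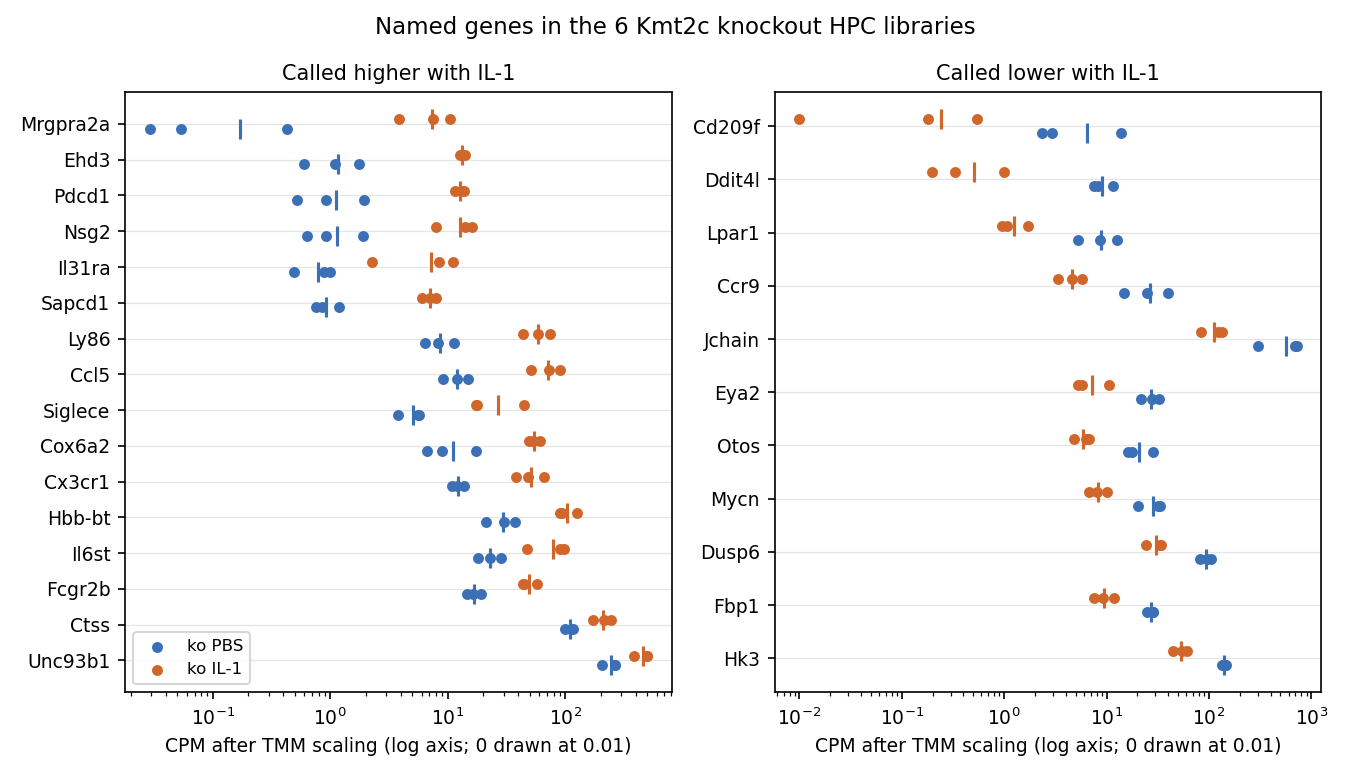
CPM after TMM scaling (log axis, a value of 0 drawn at 0.01) of the 27 named genes that were called, in the 3 PBS libraries (blue) and 3 IL-1 libraries (orange) of ko HPC. Points are libraries and vertical ticks are group means. In no gene do the blue and orange points overlap, which the naming rule required of the genes taken by size.

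Receptors and secreted signals stood among the genes raised most. Mrgpra2a, a Mas-related G protein-coupled receptor, was at 10.5, 3.81 and 7.52 CPM after IL-1 and at 0.0542, 0.0292 and 0.432 CPM after PBS. This is a 39.3-fold rise (log2 change 5.30 ± 0.84, adjusted p = 0.00864) from near absence, and reads of its close copy Mrgpra2b may be shared with it. Pdcd1, which encodes the inhibitory receptor PD-1, was at 12.9, 11.6 and 13.8 CPM against 0.922, 0.525 and 1.93 CPM. It rose 11.2-fold (3.49 ± 0.64, adjusted p = 0.0237). Il31ra, a receptor chain for IL-31, was at 2.27, 8.48 and 11.1 CPM against 0.488, 0.992 and 0.887 CPM, with the lowest value in IL-1 replicate 1. It rose 9.18-fold (adjusted p = 0.0214), and an exon of Gm3226 on the same strand overlaps it. The call of Mrgpra2a ended without PBS replicate 1 or 2 (adjusted p up to 0.0755). Those of Pdcd1 and Il31ra ended without IL-1 replicate 2 or 3 or PBS replicate 1 or 2, and for Il31ra also PBS replicate 3 (adjusted p up to 0.162 and 0.124).

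Ccl5, a chemokine that draws T cells and monocytes, reached 90.4, 51.3 and 72.9 CPM with IL-1 from 9.16, 15 and 11.9 CPM, a 5.96-fold rise (2.58 ± 0.30, adjusted p = 0.00239). Cx3cr1, the fractalkine receptor of monocytes, reached 38.3, 48.3 and 66.7 CPM from 12, 10.9 and 13.8 CPM. The lowest IL-1 value was above the highest PBS value by a wide margin in both genes, and the 4.19-fold rise of Cx3cr1 passed (adjusted p = 0.00239). Il6st, the gp130 chain shared by receptors of the IL-6 family, was at 47.6, 90.9 and 98.3 CPM against 18, 22.9 and 28.4 CPM (3.42-fold, adjusted p = 0.00827). Il6st was the only member called of 31 listed cytokine receptor and JAK-STAT feedback genes (3.23%, against 0.433% of all genes tested). The list does not hold Il31ra, described above, or Il17re, which was called lower (2.41-fold, adjusted p = 0.0246). The call of Il6st ended without PBS replicate 1 or 2 (adjusted p up to 0.0628).

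Ly86 (MD-1), the partner of the Toll-like receptor relative RP105, was at 43.4, 58.3 and 74.9 CPM after IL-1 and at 8.29, 6.36 and 11.3 CPM after PBS. It rose 6.79-fold (2.76 ± 0.37, adjusted p = 0.00358), with the groups far apart. Fcgr2b, the inhibitory receptor for IgG, was at 44.0, 44.5 and 58.0 CPM against 16.3, 14.6 and 19.3 CPM. Its 2.92-fold rise passed (adjusted p = 0.00555), but not without PBS replicate 1 or 2 (up to 0.0567). Siglece, an inhibitory receptor for sialic acids, was at 44.7, 17.4 and 17.9 CPM against 3.79, 5.66 and 5.62 CPM, so that IL-1 replicate 1 stood above the others. Its 5.30-fold rise (adjusted p = 0.0287) was lost with genotype and number as a block (adjusted p = 0.126) and without IL-1 replicate 1 or any PBS library (up to 0.195).

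Unc93b1, which carries Toll-like receptors to endosomes, was at 385, 497 and 493 CPM after IL-1 and at 263, 265 and 205 CPM after PBS (1.88-fold, adjusted p = 0.0214). Ctss, the protease cathepsin S that trims the invariant chain, was at 171, 215 and 246 CPM against 99.4, 113 and 116 CPM (1.93-fold, adjusted p = 0.0257). Both lost their calls when any library but IL-1 replicate 1 was left out (adjusted p up to 0.108 and 0.162). Ehd3, an ATPase of endosomal recycling, was at 13.3, 13.9 and 12.7 CPM against 0.596, 1.11 and 1.77 CPM. Its IL-1 values were nearly equal, and it rose 11.4-fold (3.51 ± 0.49, adjusted p = 0.00443). Nsg2, a vesicle protein best known from neurons, was at 7.93, 16.2 and 14.1 CPM against 0.922, 1.90 and 0.637 CPM (11.1-fold, adjusted p = 0.00295).

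Sapcd1 was at 6.08, 8.03 and 7.05 CPM after IL-1 and at 0.759, 0.846 and 1.18 CPM after PBS, and its 7.54-fold rise had the smallest adjusted p (0.00195), a value shared with Mpeg1. Cox6a2, the muscle form of a cytochrome c oxidase subunit, was at 49.2, 61.1 and 52.8 CPM against 9, 17.3 and 6.71 CPM (4.95-fold, adjusted p = 0.0159, up to 0.091 without IL-1 replicate 2, PBS replicate 1 or PBS replicate 3). Exons of the opposite-strand genes Vwa7 and Itgad overlap these 2 genes, and strand was not stated. Hbb-bt, an adult beta-globin, was at 126, 89.5 and 94.3 CPM against 37.5, 21.0 and 30.1 CPM (3.50-fold, adjusted p = 0.00752, 0.0633 without PBS replicate 2). Its near copy Hbb-bs was at 11.2, 8.67 and 8.84 CPM against 17.4, 4.11 and 3.44 CPM, and Hba-a1 at 0.805, 0.549 and 0.0747 CPM against 11.1, 1.93 and 0.682 CPM. Those 2 globin genes did not pass, although Hba-a1 was called lower with genotype and number as a block (adjusted p = 0.0421). The 6 erythroblast markers, which include all 3, summed to 98.9 to 139 CPM after IL-1 and 27.3 to 69.4 CPM after PBS, with 1 of 5 tested called, and their part in the Hbb-bt result was not tested.

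Another 31 higher genes, which the naming rule did not take, rose 1.73 to 22.4-fold. Several are named here after their values were seen. The monocyte and macrophage gene Mpeg1 (perforin-2) was at 48.6, 60.2 and 53 CPM after IL-1 and 14.8, 13 and 16.8 CPM after PBS, a 3.63-fold rise. Lgals1 (galectin-1) rose 2.86-fold to 546, 750 and 728 CPM from 256, 226 and 226 CPM (adjusted p = 0.00515). Pld4, an endosomal exonuclease, rose 4.06-fold (0.00669) and the lysosomal protease Lgmn 3.98-fold (0.0165). Cd38, an ectoenzyme that hydrolyses NAD, rose 4.31-fold (0.00443) and the Ebi3 chain of IL-27 and IL-35 rose 2.21-fold (0.0214). The 6 dendritic cell markers summed to 13.6 to 22.1 CPM after IL-1 and 5.75 to 8.24 CPM after PBS, none of 5 tested was called, and their part in these rises was not tested. Most of the sum came from Itgax, at 4.09, 10.4 and 12.3 CPM against 1.95, 2.39 and 3.41 CPM, and Siglech, at 10.6, 2.17 and 4.96 CPM against 0.976, 3.18 and 2.07 CPM. Xcr1 and Zbtb46 had lower means after IL-1 (0.907 against 1.27 CPM and 0.451 against 0.798 CPM). Itgax was called with either block (adjusted p = 0.01 with the replicate number and 0.0299 with genotype and number). Fewer cells of a type and less RNA per cell cannot be told apart in such bulk libraries.

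Among the lower genes were regulators of growth and signalling. Dusp6, the phosphatase that switches off ERK, was at 24.4, 33.7 and 33.0 CPM after IL-1 and at 104, 96.7 and 82.8 CPM after PBS. It fell 3.11-fold (-1.64 ± 0.22, adjusted p = 0.00323). Of 20 immediate early genes tested it was the only call (5.0%, against 0.433% of all genes tested). Mycn, a MYC family transcription factor, was at 10.02, 6.77 and 7.99 CPM against 33.1, 20.1 and 31.5 CPM. Its 3.42-fold fall (adjusted p = 0.0155) did not pass without IL-1 replicate 2 or 3 or PBS replicate 1 or 3 (up to 0.112). Ddit4l (REDD2), an inhibitor of the mTOR pathway, was at 0.328, 1.01 and 0.199 CPM against 7.51, 11.6 and 8.26 CPM, a 17.9-fold fall (-4.16 ± 0.61, adjusted p = 0.00626). Eya2, a transcriptional coactivator with phosphatase activity, was at 10.5, 5.22 and 5.78 CPM against 32.5, 21.5 and 28.1 CPM (3.82-fold lower, adjusted p = 0.00801, up to 0.0587 without IL-1 replicate 2 or 3 or PBS replicate 1).

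Receptors and metabolic enzymes also fell. Lpar1, a receptor for lysophosphatidic acid, was at 1.70, 0.946 and 1.07 CPM after IL-1 and at 8.73, 12.6 and 5.30 CPM after PBS (7.16-fold lower, -2.84 ± 0.36, adjusted p = 0.00295). Ccr9, the receptor for CCL25 that guides lymphoid progenitors to the thymus, was at 4.62, 5.71 and 3.39 CPM against 24.8, 39.6 and 14.9 CPM. It fell 5.79-fold (adjusted p = 0.0277, up to 0.16 without any library but PBS replicate 3), and 3 other genes have exons that overlap it. It was the only one called of 28 lymphoid-primed genes (3.57%, against 0.433% of all genes tested). The gluconeogenic enzyme Fbp1 was at 9.24, 7.48 and 11.8 CPM against 28.5, 28.7 and 24.8 CPM (2.87-fold lower, adjusted p = 0.00443). Hk3, a hexokinase of myeloid cells, was at 44.4, 60.8 and 54.4 CPM against 143, 147 and 136 CPM (2.66-fold lower, adjusted p = 0.0186, up to 0.0814 without any library but PBS replicate 3).

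Calls of 2 other lower genes depended on the fit. Cd209f, a C-type lectin, was at 0.179, 0 and 0.548 CPM after IL-1 and at 13.9, 2.95 and 2.32 CPM after PBS, with PBS replicate 1 well above the rest. Its log2 change of -4.65 ± 0.88 (adjusted p = 0.0295) did not pass with genotype and number as a block (0.076) or without IL-1 replicate 1 or 2 or PBS replicate 1 or 2 (up to 0.184). Macrophage markers, summed to 39.7 to 93.2 CPM after IL-1 and 62.3 to 131.7 CPM after PBS, with none of 10 called, and their part was not tested. Otos, known from the inner ear, was at 6.26, 6.71 and 4.86 CPM against 17.7, 28.2 and 16.3 CPM (3.48-fold, adjusted p = 0.0355). It did not pass with that block (0.0514) or without any of the 6 libraries in turn (up to 0.197).

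Jchain and 2 immunoglobulin kappa segments were called lower. Jchain, which joins IgA and IgM into polymers in plasma cells, was at 84.7, 122 and 133 CPM after IL-1 and at 301, 698 and 719 CPM after PBS (5.06-fold lower, -2.34 ± 0.40, adjusted p = 0.0165). The call was lost with the replicate number as a block (adjusted p = 0.0865), kept with genotype and number as a block (0.0102), and lost without any library but PBS replicate 1 (up to 0.0983). The kappa joining segments Igkj1 and Igkj2 fell 8.36-fold and 8.08-fold (adjusted p = 0.00805 and 0.00303). Igkc, the kappa constant gene, was at 378, 773 and 582 CPM against 1480, 3761 and 3704 CPM and did not pass (adjusted p = 0.0586), although the groups did not overlap. The 204 V segments summed to 327, 708 and 647 CPM against 1356, 3235 and 2869 CPM. Igha was at 200.2, 159 and 79.0 CPM against 719, 1286 and 799 CPM and did not pass (adjusted p = 0.954). Ighm, at 1016, 2293 and 2239 CPM against 1843, 2548 and 3910 CPM, had overlapping arms.

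In wt HPC the arms overlapped for the V segments, Igkc, Igha and Jchain. V segments there summed to 1748, 1108 and 462 CPM after IL-1 and 960, 929 and 878 CPM after PBS, and Jchain was at 293, 235 and 93.1 CPM against 228, 355 and 237 CPM. Of genes typical of plasma cells, looked at after these values were seen, Sdc1 (syndecan-1) was at 75.8, 206 and 117 CPM in ko HPC after IL-1 and 43.8, 57.3 and 58.5 CPM after PBS, with the IL-1 libraries all above the PBS libraries (adjusted p = 0.159). It passed with the replicate number as a block (0.0426) but not with genotype and number (0.115). Mzb1 was at 8.44, 22.5 and 22.9 CPM against 22.8, 29.0 and 19.8 CPM. Xbp1 was at 107.4, 57.8 and 24.45 CPM against 74.2, 87.1 and 80.7 CPM. Prdm1 was at 0.686, 2.32 and 2.02 CPM against 0.542, 1.75 and 1.66 CPM. Derl3 was at 3.46, 2.56 and 1.47 CPM against 3.20, 4.00 and 3.46 CPM. Tnfrsf17 was at 0.537, 0.153 and 0.324 CPM against 0.488, 2.33 and 1.09 CPM. From Mzb1 to Tnfrsf17 the arms overlapped, and none of these genes passed with or without a block. The 7 B cell markers, Ighm among them, summed to 1199 to 2590 CPM against 2120 to 4126 CPM, with none called. Whether cells of the B lineage in the sorted fraction set these levels was not tested.

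**Figure D2:**
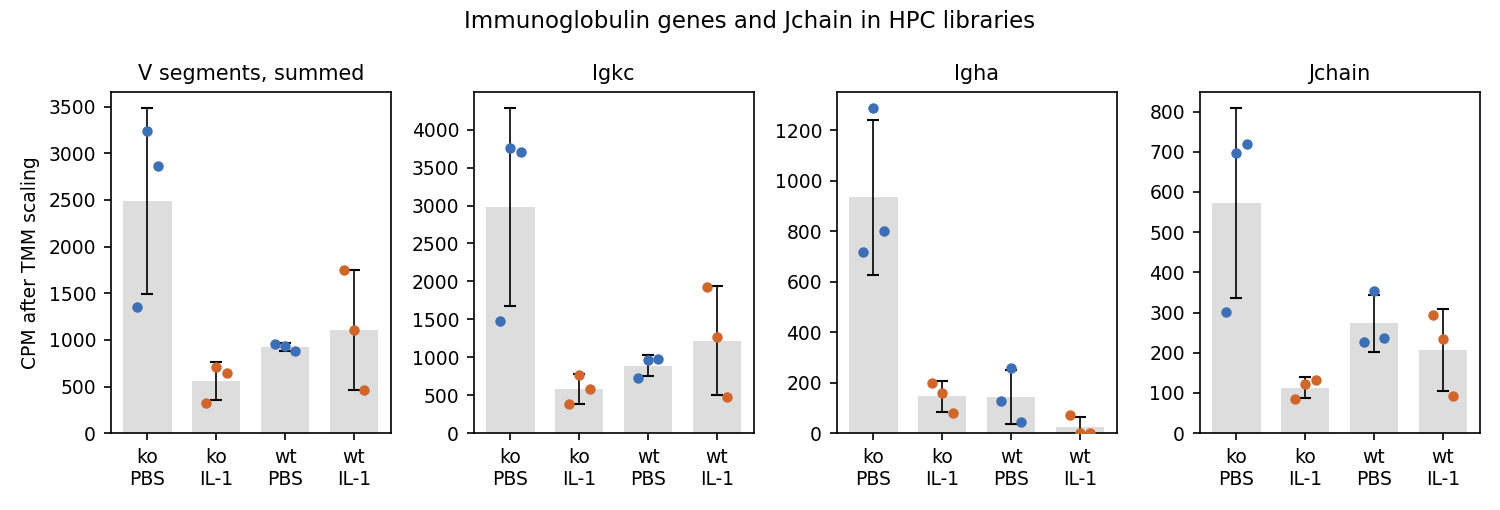
CPM after TMM scaling of the summed immunoglobulin V segments, Igkc, Igha and Jchain in HPC, by genotype and treatment. Points are libraries (blue PBS, orange IL-1), grey bars are means and error bars are SD (n = 3). The ko PBS libraries sit above the ko IL-1 libraries in each panel, and the wt arms overlap in each panel.

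Promoters of called genes were read for short motifs of factors that act downstream of IL-1 or in myeloid cells. Each promoter is a window of 300 bases that ends shortly after the start of a transcript (RefSeq, GRCm38.p6, symbols matched for 38 of 47 higher and 18 of 22 lower genes). The promoters of Dusp6 (chr10:99262981-99263280, plus strand), Mycn (chr12:12941787-12942086, minus strand) and Siglece (chr7:43660112-43660411, minus strand) are shown as examples that hold the NF-kB pattern. Dusp6 and Mycn fell and Siglece rose. Among the other genes named by size, Lpar1 and Ccr9, both fallen, hold the pattern as well. The promoter of Nsg2 (chr11:32000169-32000468, plus strand) is shown because it holds an IRF pattern. Capitals mark the match on either strand.
Dusp6: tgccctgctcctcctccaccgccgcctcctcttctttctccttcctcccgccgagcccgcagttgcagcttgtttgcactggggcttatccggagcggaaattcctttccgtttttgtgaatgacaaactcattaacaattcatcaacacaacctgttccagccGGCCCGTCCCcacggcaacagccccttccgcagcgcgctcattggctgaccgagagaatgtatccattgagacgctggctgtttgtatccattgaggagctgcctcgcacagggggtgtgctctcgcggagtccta
Mycn: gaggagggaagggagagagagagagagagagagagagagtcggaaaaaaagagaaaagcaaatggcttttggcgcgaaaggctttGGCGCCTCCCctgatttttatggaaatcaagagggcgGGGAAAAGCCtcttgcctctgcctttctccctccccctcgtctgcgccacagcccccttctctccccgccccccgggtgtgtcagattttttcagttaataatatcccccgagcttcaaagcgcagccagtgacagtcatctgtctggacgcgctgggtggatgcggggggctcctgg
Siglece: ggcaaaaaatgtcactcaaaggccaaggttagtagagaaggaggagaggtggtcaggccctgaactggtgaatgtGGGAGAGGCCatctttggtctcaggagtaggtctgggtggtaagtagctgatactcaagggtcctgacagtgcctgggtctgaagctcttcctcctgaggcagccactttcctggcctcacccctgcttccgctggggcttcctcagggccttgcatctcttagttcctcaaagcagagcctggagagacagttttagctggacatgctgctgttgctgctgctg
Nsg2: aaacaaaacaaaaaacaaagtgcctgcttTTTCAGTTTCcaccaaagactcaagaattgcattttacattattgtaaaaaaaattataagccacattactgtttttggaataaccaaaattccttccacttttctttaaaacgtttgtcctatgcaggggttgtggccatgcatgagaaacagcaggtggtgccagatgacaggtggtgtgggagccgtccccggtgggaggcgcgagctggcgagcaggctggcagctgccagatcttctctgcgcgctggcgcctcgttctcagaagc

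The NF-kB pattern starts at base 165 of the Dusp6 window, bases 86 and 123 of the Mycn window and base 76 of the Siglece window, counted from 1 at the 5′ end. Among genes with a promoter, it occurred in any window of 23.7% of higher genes, 33.3% of lower genes and 29.6% of all 10690 tested genes. Shares of the other patterns are counted by gene in the same way. The PU.1 pattern GAGGAAGT occurred in 10.5, 5.6 and 4.0%, which is 4 of 38 higher genes and 1 of 18 lower genes. The C/EBP pattern TTGCNNAA occurred in 5.3, 11.1 and 10.3%, the AP-1 pattern TGANTCA in 5.3, 5.6 and 6.3%, and the IRF pattern in 7.9, 0 and 4.0%. These shares are descriptions of few genes. Both strands were searched, and a match shows letters only.

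Of 23 genes of the IL-1 receptor family and its signalling 0 were called, a count to be read against the 0.433% called among all genes. Their median log2 change was -0.02, against 0.00 over all genes tested. Il1r1, the signalling receptor, was at 28.2, 31.3 and 36.6 CPM after IL-1 and at 33.3, 39.4 and 51.5 CPM after PBS (-0.37 ± 0.26, adjusted p = 0.957). Its partner Il1rap was at 16.9, 16.6 and 19.1 CPM against 19.7, 12.5 and 20.8 CPM, so these arms overlapped. The decoy receptor Il1r2 was at 1.73, 4.18 and 3.36 CPM against 13, 9.86 and 6.01 CPM and did not overlap, but did not pass (-1.64 ± 0.36, adjusted p = 0.0833). The receptor antagonist Il1rn was at 2.00, 0.427 and 1.24 CPM against 0.0271, 0 and 0 CPM (adjusted p = 0.0947). Il1r2 was called in 4 and Il1rn in 3 of the 16 alternative analyses. DESeq2 was among them for both genes (adjusted p = 0.00129 and 0.00145).

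NF-kB subunits and feedback inhibitors gave 0 calls among 19, with a median of 0.01, and at 0.433% of all genes a list of this size would seldom hold one. Nfkbia, which holds NF-kB in the cytoplasm and is a classic early target, was at 75.5, 107 and 62.3 CPM after IL-1 and at 105, 121 and 81.8 CPM after PBS (-0.33 ± 0.21, adjusted p = 0.934). Tnfaip3 (A20) was at 2.89, 4.58 and 4.88 CPM against 2.55, 3.33 and 5.89 CPM and Nfkbiz at 3.22, 2.17 and 2.12 CPM against 2.17, 3.47 and 1.96 CPM. All 3 had overlapping arms. Lcn2, an iron-binding acute phase protein, was at 82.0, 7.90 and 15.5 CPM against 0.136, 0.321 and 0.864 CPM. The arms lay far apart, yet the spread among the IL-1 libraries was wide and the log2 change of 6.27 ± 1.49 did not pass (adjusted p = 0.201). Lcn2 was called in 1 of the 16 alternative analyses, DESeq2 (adjusted p = 3.13e-05).

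Of 30 granulocyte-monocyte genes, Fcgr2b, Ly86 and Emb rose and Hk3 fell, which is 13.3% called against 0.433% of all genes tested, with a median log2 change of 0.26. With the replicate number as a block 6 rose, Itgam, Cd68 and Igsf6 being the further ones, and with genotype and number as a block 3 rose. Those fits called 0.828% and 0.727% of all genes tested in either direction. None of 23 myeloid transcription factors was called, and at 0.433% of all genes a list of this size would seldom hold a call. Spi1, which encodes PU.1, was at 77.9, 68.6 and 21.3 CPM after IL-1 and at 74.3, 92.8 and 52.4 CPM after PBS (adjusted p = 0.999). Csf1r, the M-CSF receptor, was at 90.9, 56.9 and 104 CPM against 36.2, 39.6 and 66.0 CPM (0.83 ± 0.26, adjusted p = 0.35). The granule genes Mpo (293, 539 and 1119 CPM against 1157, 889 and 1255 CPM) and Elane (38.1, 81.2 and 133 CPM against 192, 58.9 and 129 CPM) had overlapping arms.

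Of 30 HSC-associated genes, 21 had a log2 change below 0, and the median was -0.37. Among them 1 was called (3.33%, against 0.433% of all genes tested), the calcium channel Trpc6. It was lower, at 0.239, 0.183 and 0.224 CPM against 1.14, 0.875 and 1.23 CPM. With the replicate block 3 of the 30 genes fell and 1 rose, in a fit that called 0.351% of all genes tested lower and 0.476% higher. The 6 HSC markers summed to 158 to 194 CPM after IL-1 and 242 to 279 CPM after PBS. Most of the sum came from Hlf, at a mean of 127 against 193 CPM. Slamf1 alone had a higher mean after IL-1 (5.27 against 3.69 CPM). Of the 6 HSC markers and the 6 HPC markers none passed, but with the replicate number as a block Hlf was called lower (adjusted p = 0.0415) and Ly6a higher (0.0299), as they were with genotype and number as a block (0.0476 and 0.00405). The lymphoid genes Dntt (705, 3945 and 3267 CPM against 1565, 1920.3 and 1377 CPM) and Flt3 (487, 951 and 1190.2 CPM against 743, 930.3 and 1151 CPM) had overlapping arms, with IL-1 replicate 1 the lowest of the IL-1 libraries. In 21 erythroid genes the median was -0.60. Hbb-bt was the only call among them in this fit (4.76%, against 0.433% of all genes tested). The replicate block added Car1 and Car2 as lower, in a fit that called 0.351% of all genes tested lower.

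Of 33 DNA replication genes, 30 had a log2 change above 0 (90.9%, median 0.19), and of 27 oxidative phosphorylation genes 26 did (96.3%, median 0.26), against 50.4% of all genes tested. In 25 cholesterol synthesis genes the share was 12% and the median -0.45. None of these genes passed, nor did any of 30 mitosis genes (median 0.09) or 33 interferon-stimulated genes (median 0.12), against 0.433% of all genes tested. Mki67 was at 29.7, 94.0 and 81.4 CPM after IL-1 and 53.4, 89.1 and 51.2 CPM after PBS, and Myc at 720, 336 and 362 CPM against 559, 494 and 823 CPM. In both genes the IL-1 library numbered 1 stood apart from the other 2.

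**Figure D3:**
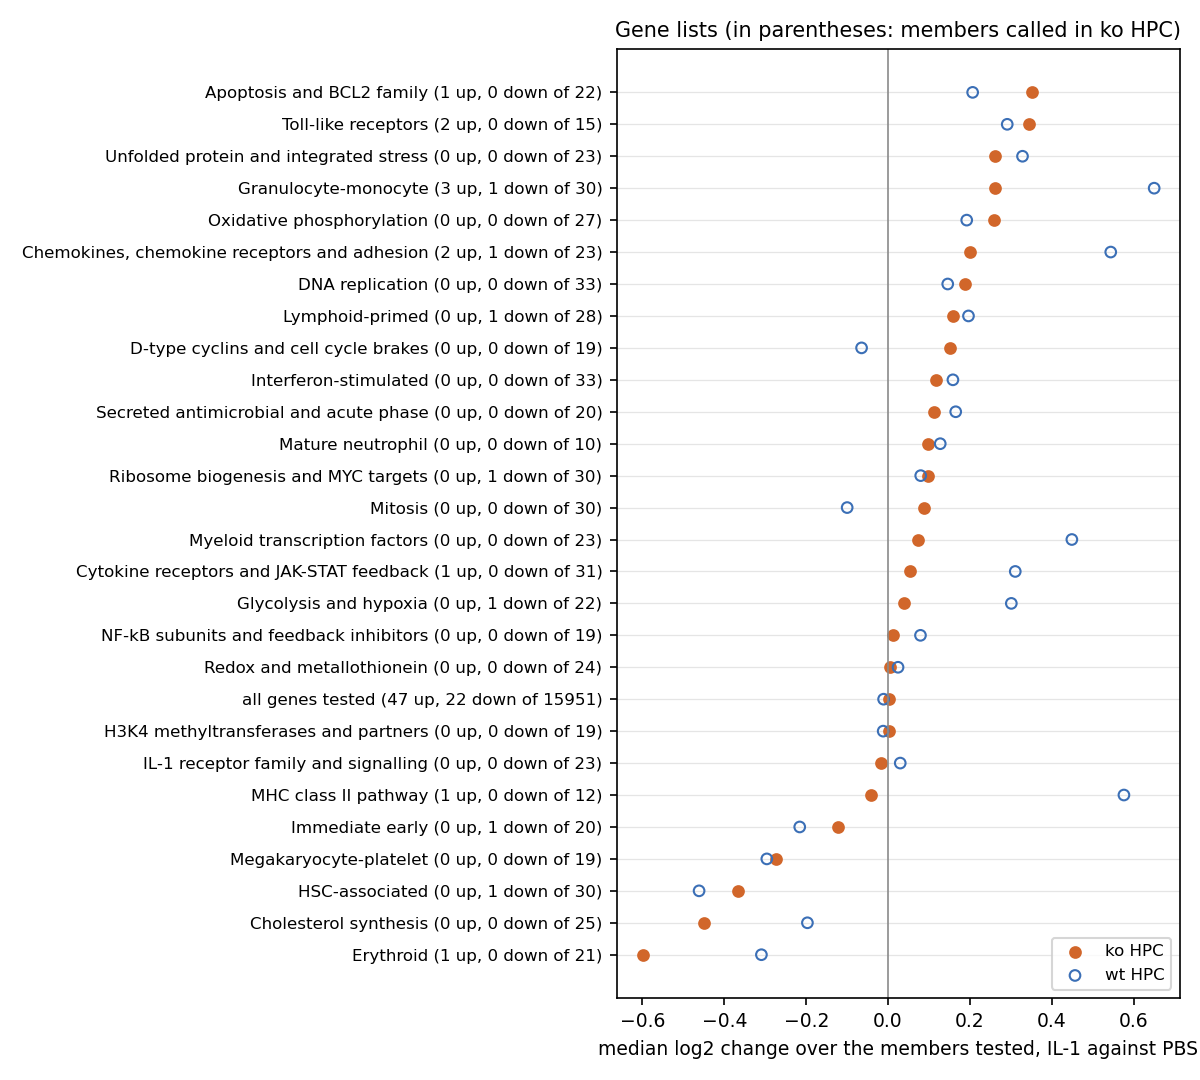
Median log2 change with IL-1 (horizontal axis) over the tested members of each gene list in ko HPC (filled orange) and wt HPC (open blue). Numbers in parentheses count members called in ko HPC. Medians in ko HPC run from -0.60 (erythroid) to 0.35 (apoptosis and BCL2 family), and lists with a call hold at most 3 called in a direction.

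Set beside wild type, the ko response was largely shared in direction. In wt HPC 151 genes were called (0.947%), 112 higher (0.702%) and 39 lower (0.244%), and 315 (1.97%) with the replicate block. Of the 47 genes higher in ko HPC, 41 were called higher in wt HPC, which is 87.2% of the ko genes and 36.6% of the wt genes. Of the 22 lower ones 10 were shared, 45.5% of the ko genes and 25.6% of the wt genes. All 47 higher and 21 of 22 lower genes had the same sign in wt, the exception being Igkj1. The median log2 change of the ko-higher genes was 1.97 in ko and 2.11 in wt, and that of the ko-lower genes was -1.71 in ko and -1.18 in wt. The 71 genes called higher in wt HPC alone had a median of 0.90 in ko, and 69 of them were above 0 there. Genes chosen by a call in ko are favoured in ko in such medians, so they are given as a description.

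**Figure D4:**
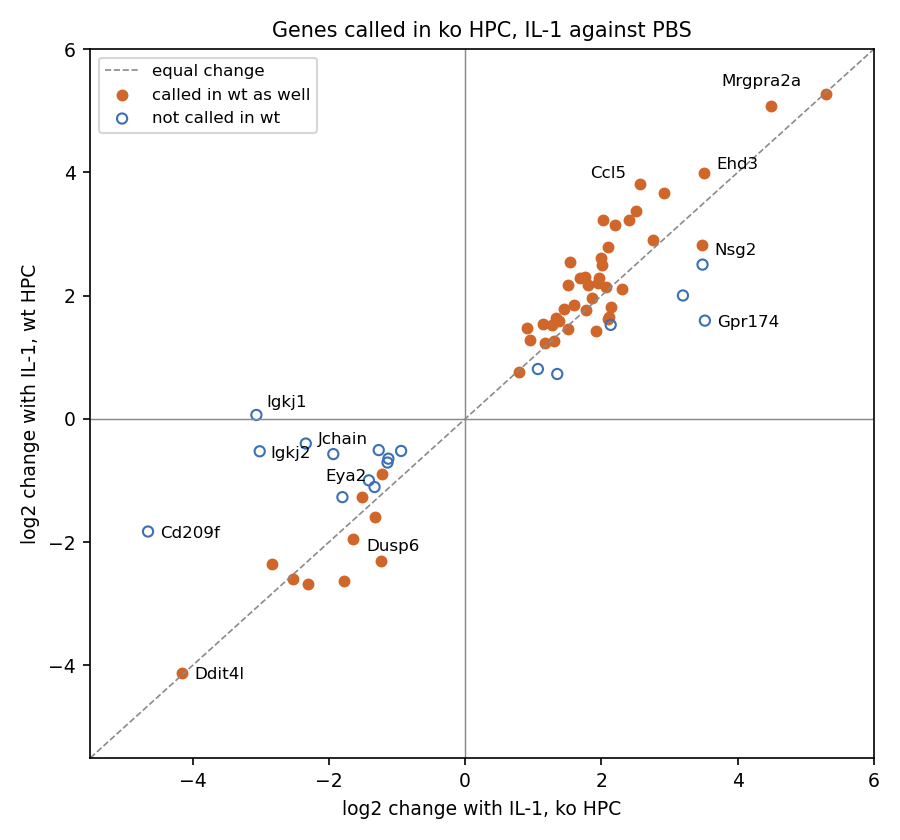
Log2 change with IL-1 in wt HPC (vertical) against ko HPC (horizontal) for the 69 genes called in ko HPC. Filled points were also called in wt HPC and open points were not. Igkj1, at -3.06 in ko and 0.06 in wt, is the only point whose signs differ.

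The test of the difference between the ko and wt responses called no gene (edgeR, smallest adjusted p = 0.9998, 352 genes at an unadjusted p under 0.05). DESeq2 called 12 and limma voom 0. Cd7, Plbd1 and Tmem202 had the smallest p among the genes the naming rule admits. Cd7, a surface protein of lymphoid progenitors, was at 10.4, 12.4 and 14.1 CPM after IL-1 and 8.51, 9.69 and 11.6 CPM after PBS in ko HPC, and at 19.8, 31.9 and 27.7 CPM against 6.36, 8.22 and 7.19 CPM in wt HPC. The difference was -1.56 ± 0.33. Plbd1, a phospholipase B-like protein, was at 7.69, 2.41 and 7.92 CPM against 8.40, 5.05 and 6.07 CPM in ko and at 13.1, 15.9 and 8.54 CPM against 2.85, 2.36 and 2.52 CPM in wt, a difference of -2.39 ± 0.56. In both genes the wt arms were apart and the ko arms overlapped. With genotype and number together as a block 6 genes passed (0.0376%), all lower and all immunoglobulin V segments, of which Igkv8-30 was at 0, 0.305 and 0 CPM after IL-1 and 0, 766 and 0.182 CPM after PBS in ko HPC, so that PBS replicate 2 alone held nearly all of its reads.

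The ko HPC and ko HSC responses shared 5 called genes. In a fit of all 27 libraries, 58 genes were called in ko HPC (0.331%), 30 higher (0.171%) and 28 lower (0.16%), and 50 in ko HSC (0.286%), 43 higher (0.246%) and 7 lower (0.04%). Higher in both were Fcgr2b, Gpr18, Lgmn and Pld4, which is 13.3% of the ko HPC genes and 9.3% of the ko HSC genes. Lower in both was Fbp1. Pld4 went from a mean of 74.9 to 303 CPM in ko HPC and from 5.68 to 23.3 CPM in ko HSC, log2 changes of 2.02 ± 0.31 and 2.04 ± 0.28. Fbp1 went from 28.1 to 9.75 CPM and from 46.4 to 19.8 CPM.

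No gene passed the test of the difference between ko HPC and ko HSC (smallest adjusted p = 0.107, 888 genes at an unadjusted p under 0.05), and DESeq2 called 19. The smallest p belonged to Ehd3, whose log2 change was 3.50 ± 0.41 in ko HPC and 0.70 ± 0.31 in ko HSC. Slc40a1, the iron exporter ferroportin, changed by -1.67 ± 0.36 in ko HPC and 0.63 ± 0.31 in ko HSC (difference -2.31 ± 0.47, adjusted p = 0.168). Cd53, a tetraspanin of white blood cells, changed by 0.54 ± 0.38 and 3.10 ± 0.36. In all 6 pairs of an HPC and an HSC library with the same ko treatment and number, Y-linked reads were present in both or in neither, and the fit treats the pairs as unrelated.

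The called genes were then placed among untreated ko populations of the other experiment in the series, which shares no library with this contrast. In that experiment 1877 of 15110 genes differed between untreated ko pre-granulocyte-monocyte cells (pGM) and ko HPC (12.4%, 5.16% higher and 7.26% lower), 40.1% differed for granulocyte-monocyte progenitors (GMP) (17.1% higher, 23% lower) and 29.5% for HSC (13.6% higher, 15.9% lower). For HSC the balance turned with RLE scaling, from 2051 higher and 2405 lower to 2400 higher and 1982 lower. Of 46 higher genes measured there, 35 (76.1%) were lower in untreated ko HSC than in untreated ko HPC, against 16.8% of the 14193 genes of the HPC fit measured in both. In ko pGM, 19 (41.3%) were higher than in HPC, against 5.2% of all genes. In ko GMP, 18 were higher (39.1%, against 17.5%) and 16 lower (34.8%, against 23.8%). Ly86 was higher by 3.19 in pGM and 3.50 in GMP on the log2 scale. Cx3cr1 was higher in pGM by 2.21, while its 0.75 in GMP did not pass (edgeR, adjusted p = 0.376). Nsg2 was lower, at -2.55 in pGM and -9.03 in GMP. Ccl5 was lower in GMP at -3.39, while its -0.88 in pGM did not pass (adjusted p = 0.265).

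Genes lower with IL-1 tended to be lower in the myeloid populations as well. Of 22 such genes, 12 (54.5%) were lower in ko pGM than in ko HPC and 16 (72.7%) lower in ko GMP, against 7.6 and 23.8% of all genes. In ko HSC 7 were higher (31.8%) and 8 lower (36.4%). Mycn differed by -1.79 in pGM, -7.20 in GMP and 2.35 in HSC, and Eya2 by -1.90, -4.93 and 2.07, so both were highest in HSC of these populations. Hk3 was an exception, at 1.54 in pGM and 2.20 in GMP. These counts are descriptions of a set picked by level and call in HPC, and genes read well in HPC are favoured in it.

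**Figure D5:**
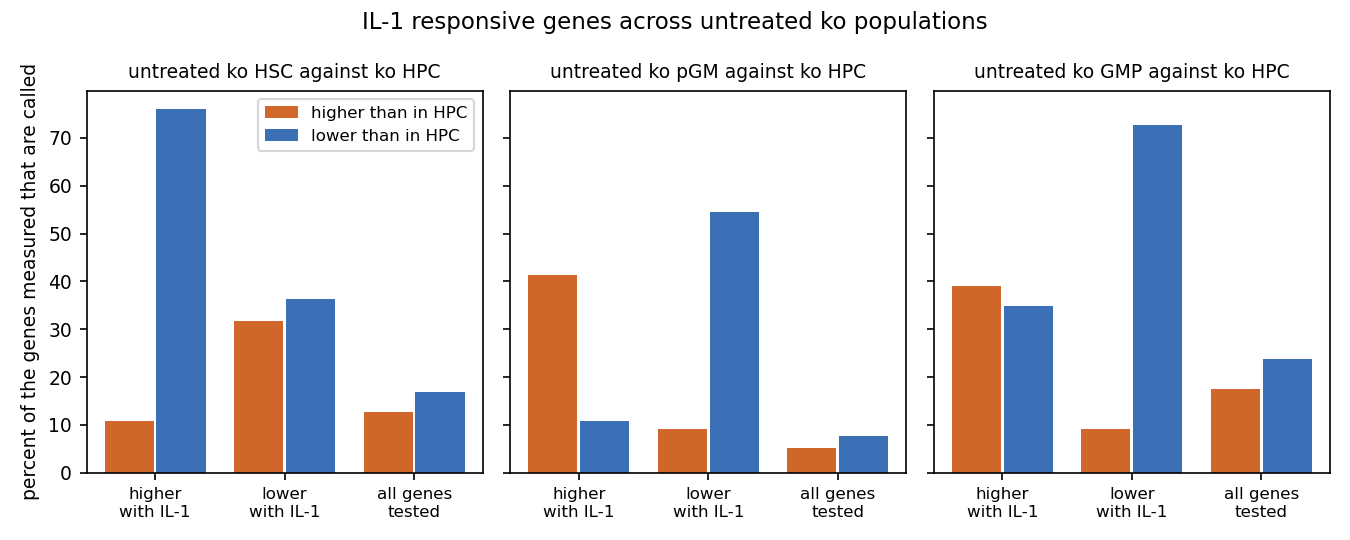
Share (percent) of genes called higher (orange) or lower (blue) in untreated ko HSC, pGM and GMP than in untreated ko HPC, for the genes called higher and lower with IL-1 and for all genes of the HPC fit. The tallest bar, 76.1%, is the share of IL-1-higher genes that are lower in HSC than in HPC.

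Ccl5, Dusp6, Ehd3, Ly86, Nsg2 and Sapcd1 kept their calls under each of the 16 alternative analyses run. Cx3cr1, Ddit4l, Fbp1 and Lpar1 kept them with any library left out, but not in each other analysis. The count of called genes was 28 without PBS replicate 2, 31 without PBS replicate 1, 37 without IL-1 replicate 2, 41 without IL-1 replicate 3 and 86 without IL-1 replicate 1. Without both libraries that hold Y-linked reads, a setting chosen after seeing the data, it was 44.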

How the data were processed

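Total RNA of sorted cells was measured as read counts per gene. The counts were deposited by the authors as whole numbers, and the submitters' processing notes name STAR 3.0.4 as aligner and featureCounts 1.4.5 (Subread) as counter. The build and the strand setting: not given in the sources used here. Per the labels' protocols RNA was isolated with a Qiagen kit and amplified with Clontech SMARTer chemistry. Of 41388 gene IDs, 40254 matched GENCODE M21 (GRCm38), which gave symbols; 0 columns stayed unassigned.

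The 12 HPC libraries were fitted together with edgeR 4.0.16 (R 4.3.3): filterByExpr (minimum count 10, minimum total 15), TMM scaling, robust quasi-likelihood F tests, Benjamini-Hochberg adjusted p under 0.05. The comparison with HSC used all 27 treated libraries and that of untreated populations 48. Values are CPM after TMM scaling, changes log2 ± SE. Replicates differed beyond sampling noise. The script was tested on simulated data.

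Same-numbered ko libraries correlated in their residuals (r = 0.16, 0.19 and 0.27 across genes, and 0.33, 0.17 and 0.23 in wt). The main fits held no block, and the number served as a block in alternative fits. Such pairing is a hint from the data only, since labels name no shared batch and pairs 1 and 2 in ko differ in Y-linked reads. Blocked values are given where they change a call.

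Alternatives were RLE scaling, DESeq2 1.42.0, dropping the low-count filter, 2 blocks, limma 3.58.1 voom with sample weights, a Y-linked covariate, other sets of libraries and leaving out each library. Named genes are Kmt2c, up to 10 higher and 10 lower called protein-coding genes by size (5 CPM or more on average in the higher group, groups not overlapping, antigen receptor segments, Y-linked and predicted genes left out), up to 3 called members of each of 27 lists, a fixed panel, and the 3 genes of smallest p in each test of a difference. The comparison, lists and panel were chosen with earlier results of these data known.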

Additional observations from a re-analysis of the deposited data

How the results depend on the processing

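For ko HPC with IL-1 against PBS, the 69 calls became 233 with DESeq2, 187 with limma voom, 134 without a filter on low counts, 132 with the replicate block, 116 with the replicate block within genotype and 44 without the 2 libraries holding Y-linked reads; leaving out each library gave 28 to 86. RLE scaling, the Y-linked covariate, all 27 libraries in a fit and the 6 ko libraries alone gave 76, 70, 58 and 55. For wt HPC, 151 became 459, 299, 261, 315 and 263 in the first 5 of these settings, and 69 to 145 with a library left out. The difference between ko and wt went from 0 to 12 with DESeq2 and to 6 with the replicate block within genotype, and was 0 with the replicate block over all libraries and 0 to 0 with a library left out. In the fit of all populations, ko HPC went from 58 to 146 with DESeq2 and 95 with the replicate block (15 to 57 with a library left out), ko HSC from 50 to 163 and 122 (24 to 88), and their difference from 0 to 19 and 1 (0 to 2). The untreated comparisons stayed within 1.5 times their main counts in all 10 alternatives each. The share of higher calls in ko HPC was 68.1% in the main fit, 52.8% with DESeq2, 57.6% with the replicate block and 53.4% with the block within genotype. Of 27 named genes called, 6 kept the call in all 16 alternatives and 21 lost it in at least 1. None of 52 named genes changed sign where the main fit or the alternative called it. Of 25 not called, 20 were never called. Some of the genes without a call did change sign, such as Mki67 (log2 change -0.20 to 0.75) and Flt3 (-0.39 to 0.19). The cause of these shifts was not tested. Totals of 27e6 to 42.8e6 reads per HPC library leave genes under about 1 CPM with few reads; the number of libraries per arm, 3, limits the precision as well.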

Other observations

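The IL-1 library numbered 1 differed from replicates 2 and 3 in ko HPC, and some of its values ran alike in wt HPC. Of the 47 genes called higher in ko HPC, 7 were highest in ko IL-1 replicate 1, and all 7 (Ccl5, Ebi3, Fyb, Hbb-bt, Mrgpra2a, Pld4 and Siglece) were also highest in wt IL-1 replicate 1. Siglece was at 44.7, 17.4 and 17.9 CPM in ko and 72.9, 25.2 and 27.3 CPM in wt, and Mrgpra2a at 10.5, 3.81 and 7.52 CPM and 28.1, 7.30 and 9.01 CPM. Lcn2, not called in the main fit, was at 82.0, 7.90 and 15.5 CPM in ko and 106, 11.2 and 15.5 CPM in wt. Another 34 of the 47 were lowest in ko IL-1 replicate 1, of which 19 were lowest in wt replicate 1 as well. Dntt, the terminal transferase of lymphoid progenitors, was at 705, 3945 and 3267 CPM in ko and 1202, 2590.2 and 3422 CPM in wt, and Mpo at 293, 539 and 1119 CPM and 212, 527 and 848 CPM. In ko this library holds Y-linked reads and in wt the library of that number does not.

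Mast cell, basophil and eosinophil markers, which the report has not described, summed to 55.8 to 78.5 CPM in ko HPC after IL-1 and 93.1 to 223 CPM after PBS, with none of 8 called. T and NK cell markers summed to 263 to 300.2 CPM and 293 to 368 CPM. Markers of stroma and endothelium summed to 120.0 to 230 CPM and 129 to 153 CPM, with Col3a1 at no read after IL-1. The 19 genes of H3K4 methyltransferases and their partners had a median log2 change of 0.00 and no call, against 0.433% of all genes tested.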
